A study of Mus musculus with 12 samples.

Results

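Cathepsins and cystatin C were followed in aneurysms of the mouse proximal thoracic aorta: 8 cathepsin genes (Ctsk, Ctss, Ctsl, Ctsb, Ctsd, Ctsc, Ctsh and Ctsz) and Cst3, which encodes cystatin C. The 9 genes were taken by symbol from the 30130 genes of the expression table, each symbol was found, and all 9 passed the filter on low values that left 21415 genes for testing. Whole aortic tissue was measured by bulk RNA sequencing in 12 libraries, 7 from chronic proximal thoracic aortic aneurysms (cPTAA; numbered 2, 3, 4, 6, 7, 9 and 12) and 5 from sham-operated proximal aortas (sham; 1, 5, 8, 10 and 11). All mice were male and of the strain that the labels spell C56BL/6J. The cPTAA mice had elastase, a protease that cuts elastin, applied around the aorta together with BAPN (beta-aminopropionitrile), an inhibitor of the lysyl oxidases that cross-link elastin and collagen. The sham mice had sham surgery and drank normal water. The effects of elastase, of BAPN and of their surgery cannot be told apart in this design. Age and time after surgery are both not given in the sources used here. No label ties a sample to an animal, so each p-value measures spread between samples, which may be technical.

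Cathepsins are proteases of the lysosome, made as inactive precursors and activated at acid pH, and several of them can also be released from cells. Most are cysteine proteases, which cystatin C, a small secreted protein, blocks by binding in the active site. In the arterial wall, macrophages and smooth muscle cells are known sources, and cathepsins K, S and L are known for cutting elastin and collagen.

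Reads assigned to the listed genes, recovered from the values, were between 14078885 and 17493428 per library. Values are normalised read counts, that is, reads divided by 1 factor per library, and fold changes are cPTAA minus sham on the log2(value + 1) scale with the standard error (SE) and limma's adjusted p over all tested genes (threshold 0.05). In bulk tissue, more cells of a type and more RNA per cell cannot be told apart. Smooth muscle markers were present in every library, with a sum over the 8 genes of 65882 to 260202 in cPTAA and 207520 to 286527 in sham. The libraries were not alike in other markers: the cardiomyocyte score, the mean log2 level of 6 markers, ranged from 4.40 to 11.76 in cPTAA, and cPTAA 6, 7 and 9 and sham 8 had the highest scores of their groups. Brown adipocyte scores, over 10 markers, were 6.18 to 9.87 in cPTAA and 10.09 to 11.65 in sham, so the groups did not overlap in it.

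Of the 9 genes, 7 rose in cPTAA (Ctss, Ctsk, Ctsc, Ctsh, Ctsl, Cst3 and Ctsd), where 12.9% of all tested genes rose. Ctsb and Ctsz did not pass the test. By limma 0 of the 9 fell, where 11.1% of all tested genes fell, and that count was also 0 at an unadjusted p under 0.05 and with edgeR, DESeq2 and voom. The median log2 fold change was 0.94 over the 9 genes and -0.05 over all tested genes. For 5 of the 9 (Ctsk, Ctss, Ctsl, Ctsc and Ctsh) every cPTAA library lay above every sham library, which held for 8.02% of all tested genes. The opposite order, every cPTAA library below every sham library, was found for 4.95% of all tested genes and for 0 of the 9.

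**Figure D1:**
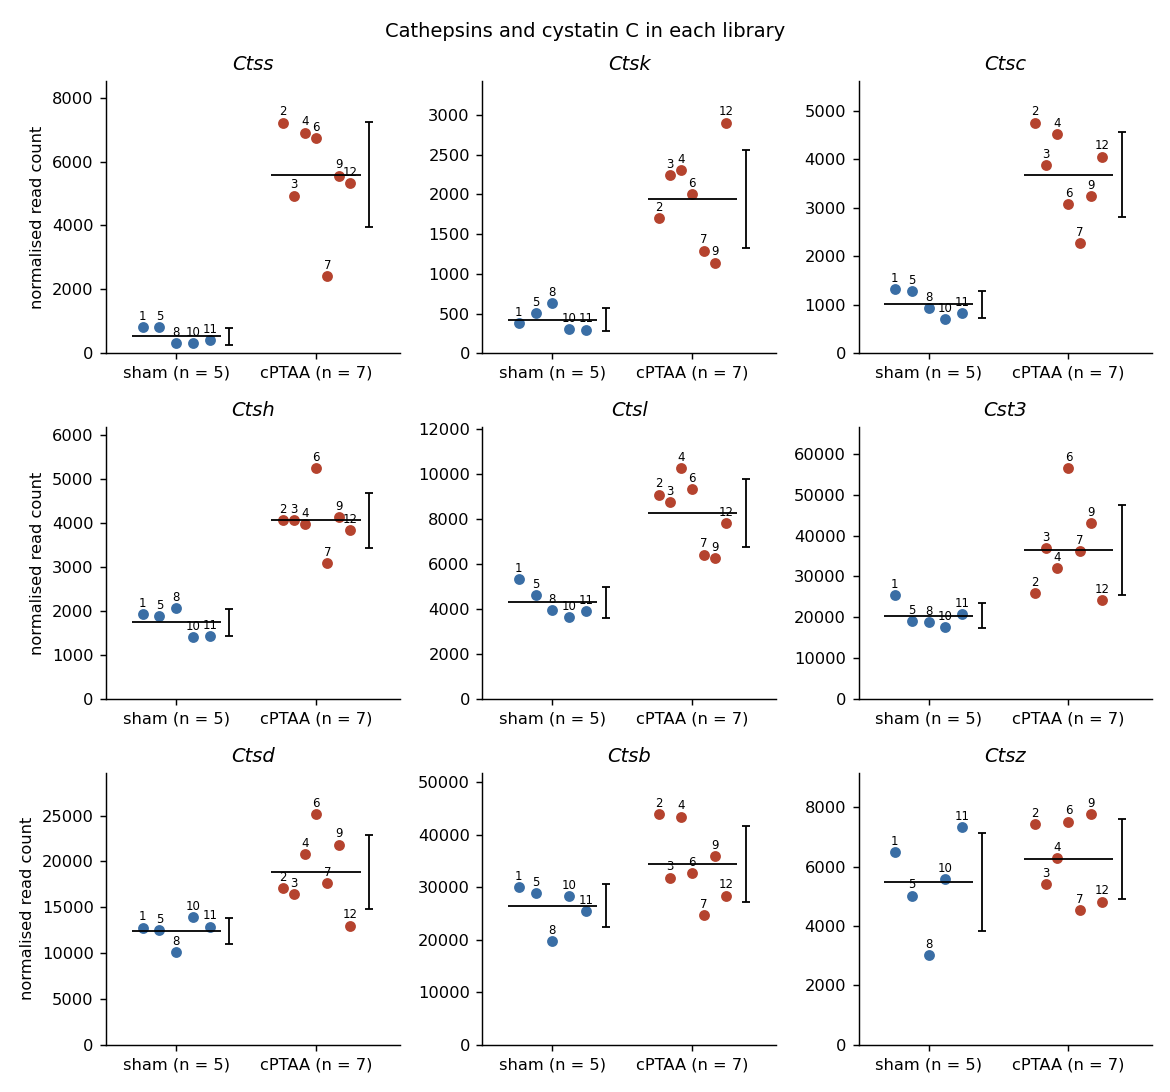
Normalised read counts of the 9 genes in every library, 1 panel per gene on a linear axis from 0, with library numbers above the points, a line at each group's mean and a bar of 1 SD on either side of it. The cPTAA and sham points are apart for Ctsk, Ctss, Ctsl, Ctsc and Ctsh and overlap for Ctsb, Ctsd, Ctsz and Cst3.

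Ctss, which encodes the cysteine protease that trims the invariant chain of MHC class II and keeps its activity at neutral pH, had the largest change of the 9. Its sham values were 809.7, 808.4, 321.9, 307.1 and 410.8 in sham 1, 5, 8, 10 and 11. Among the cPTAA libraries the lowest value was 2409 (cPTAA 7), the median 5563 and the highest 7221 (cPTAA 2). The lowest aneurysm was still well above the highest sham aorta, and cPTAA 7 sat apart from the other cPTAA libraries on the low side. The mean was 5589 ± 1651 (SD, n = 7) in cPTAA against 532 ± 256 (SD, n = 5) in sham, a log2 fold change of 3.45 ± 0.31 or 10.9-fold (limma adjusted p = 5.25e-06).

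Ctsk encodes cathepsin K, the collagenase by which osteoclasts resorb bone matrix. The sham values were 377.4, 504.5, 629.6, 304.9 and 299.1 in the same order of libraries. In cPTAA the lowest value was 1141 (cPTAA 9), the median 1999.5 and the highest 2904 (cPTAA 12). The groups did not overlap, and the libraries at the ends were not those of Ctss. The log2 fold change was 2.19 ± 0.25, or 4.57-fold (adjusted p = 2.49e-05). Of the 6 osteoclast markers tested, Atp6v0d2, a proton pump subunit, and Dcstamp, a fusion receptor, rose, while Acp5, the tartrate-resistant acid phosphatase, fell from 1767 ± 416 (SD, n = 5) to 990.1 ± 203.1 (SD, n = 7). Atp6v0d2 and Dcstamp were low in sham, with means of 10.3 and 2.26. Calcr, the calcitonin receptor that marks osteoclasts, had mean values of 0.674 in cPTAA and 0.676 in sham and was too low to be tested. The summed level of the 7 osteoclast markers was 1112 to 1831 in cPTAA and 1312 to 2480 in sham, and Acp5 weighs most in that sum. Their score, the mean log2 level of the 7 markers, was 4.42 to 5.57 in cPTAA and 3.55 to 4.21 in sham, without overlap. The osteoclast markers thus did not move in 1 direction.

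Ctsc encodes cathepsin C, or dipeptidyl peptidase I, which removes dipeptides and so activates several serine proteases of immune cell granules. Sham values were 1319, 1285, 926.0, 705.3 and 825.2 in sham 1, 5, 8, 10 and 11. The cPTAA values had a lowest of 2263 (cPTAA 7), a median of 3874 and a highest of 4755 (cPTAA 2). As for Ctss, cPTAA 2 was highest and cPTAA 7 lowest among the aneurysms, and sham 1 highest and sham 10 lowest among the sham aortas. The log2 fold change was 1.87 ± 0.21, or 3.65-fold (adjusted p = 2.18e-05). Tested against a change of 2-fold, Ctss (adjusted p = 0.000373), Ctsk (0.00682) and Ctsc (0.017) passed with limma's treat, where 3.34% of all tested genes passed in either direction. Without sham 10 or without sham 11, Ctsc missed that threshold (adjusted p = 0.0646 and 0.0599).

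The promoters of these 3 genes, which rose most, are shown with that of Ctsd, which rose by less, so that their motifs can be compared. Each is the 250 bases before the annotated start in RefSeq (GRCm38.p6, another build than the GRCm39 of the submitters' processing notes). They are written 5′ to 3′ on the gene's strand, with matches to 3 of the motifs below in capitals. Ctss is at chr3:95526536-95526785 (+ strand), Ctsk at chr3:95498960-95499209 (+), Ctsc at chr7:88277835-88278084 (+) and Ctsd at chr7:142387828-142388077 (- strand).
Ctss: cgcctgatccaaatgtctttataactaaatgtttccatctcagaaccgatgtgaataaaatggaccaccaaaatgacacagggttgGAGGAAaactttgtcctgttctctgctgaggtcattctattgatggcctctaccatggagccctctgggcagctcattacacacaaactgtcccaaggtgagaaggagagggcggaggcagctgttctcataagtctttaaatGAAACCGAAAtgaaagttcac
Ctsk: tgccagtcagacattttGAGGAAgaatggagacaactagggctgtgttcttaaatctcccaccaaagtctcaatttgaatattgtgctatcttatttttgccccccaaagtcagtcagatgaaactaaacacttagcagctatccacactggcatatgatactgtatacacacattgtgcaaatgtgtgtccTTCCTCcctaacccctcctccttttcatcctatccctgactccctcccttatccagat
Ctsc: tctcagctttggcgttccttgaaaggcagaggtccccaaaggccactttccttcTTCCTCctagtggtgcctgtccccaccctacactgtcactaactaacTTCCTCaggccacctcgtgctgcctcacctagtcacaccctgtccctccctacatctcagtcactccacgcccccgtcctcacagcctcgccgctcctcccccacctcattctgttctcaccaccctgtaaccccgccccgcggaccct
Ctsd: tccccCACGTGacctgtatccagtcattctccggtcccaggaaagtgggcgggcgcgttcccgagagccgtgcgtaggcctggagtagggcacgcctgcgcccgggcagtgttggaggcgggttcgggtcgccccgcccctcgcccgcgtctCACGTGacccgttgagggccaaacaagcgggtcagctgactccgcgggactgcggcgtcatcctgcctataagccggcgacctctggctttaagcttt

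Ctsk and Ctss are neighbours on chromosome 3, on the same strand, with 0 annotated genes between them in GENCODE M21 (GRCm38). Promoters were matched for 7 of the 9 genes (Ctsk, Ctss, Ctsl, Ctsd, Ctsc, Ctsz and Cst3) and searched on both strands for 5 motifs, beside all 32851 mouse promoters of that table. The core of the site for PU.1, the myeloid factor encoded by Spi1, namely GAGGAA, was found in Ctsk, Ctss, Ctsc and Cst3, that is in 4 of 7, and in 23.3% of all promoters. In Ctss it lay at position -164, counted from the start site. An interferon regulatory factor motif, GAAANNGAAA, was found in Ctss alone, as GAAACCGAAA at position -21, and in 2.98% of all promoters. The E-box CACGTG, the core of the site read by TFEB and other E-box factors, was found once in Ctsl and at 2 places in Ctsd, positions -245 and -98, and in 6.02% of all promoters. TATAAA was found in Ctss on the strand opposite to the gene, at position -233 (12.4% of all promoters). The AP-1 motif TGANTCA was found in 0 of 7 (6.75% of all promoters). No matches overlapped each other. These matches are letters in a sequence and were not tested for binding.

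Among the other cysteine proteases, Ctsh (2.33-fold) and Ctsl (1.92-fold) rose without overlap between the groups. Ctsh, an aminopeptidase, was at 3084 to 5237 in cPTAA (median 4060.0) and 1412 to 2058 in sham (median 1882), a log2 fold change of 1.22 ± 0.15 (adjusted p = 4.43e-05). Ctsl, an endopeptidase of the lysosome, was at 6263 to 10249 in cPTAA (median 8741) and 3646 to 5324 in sham (median 3965), a log2 fold change of 0.94 ± 0.16 (adjusted p = 0.000755). Neither passed the test against 2-fold.

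Ctsb, an endopeptidase that also cuts dipeptides from the carboxyl end, had high values in both groups, 24689 to 43964 in cPTAA and 19837 to 30111 in sham. In 5 of 7 cPTAA libraries the value was above every sham value, and the log2 fold change of 0.36 ± 0.22 did not pass (95% confidence interval -0.11 to 0.84, adjusted p = 0.264). Ctsz, a carboxypeptidase, was at 4521 to 7760 in cPTAA and 3011 to 7318 in sham, and the sham spread was nearly as wide as the range of all libraries. Its log2 fold change was 0.22 ± 0.22 (interval -0.25 to 0.69, adjusted p = 0.518). These intervals leave room for a rise of up to 0.84 for Ctsb and 0.69 for Ctsz on the log2 scale. Ctsb overlaps Fdft1, and Ctsz overlaps Nelfcd, on the opposite strand. Fdft1 averaged 1028 in cPTAA and 1644 in sham and Nelfcd 529.0 and 597.8, well below both cathepsins, and without a stated strand setting their reads cannot be told apart. Members that rose have overlaps too. Ctsd shares its strand with Gm49369, a protein-coding gene, and Ctss with the pseudogene Hmgb1-ps5 (means 2.18 in cPTAA and 0.217 in sham). Ctsl overlaps Gm47123 and Gm49230, and Ctsc overlaps Gm26522. Gm49369, Gm47123, Gm49230 and Gm26522 are not among the listed genes, so they have no value here.

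Ctsd encodes the aspartic protease of the lysosome, which cystatin C does not block. It was at 12991 to 25146 in cPTAA (median 17637, highest in cPTAA 6) and 10126 to 13952 in sham (median 12772). All cPTAA libraries except cPTAA 12 lay above every sham library. The log2 fold change was 0.58 ± 0.19 (adjusted p = 0.0391). This call was near the threshold: it was lost without any 1 of cPTAA 2, 4, 6 or 7 or of the 5 sham libraries, with adjusted p between 0.0543 (without cPTAA 2) and 0.093 (without sham 8), and the log2 fold change then stayed between 0.50 and 0.62.

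**Figure D2:**
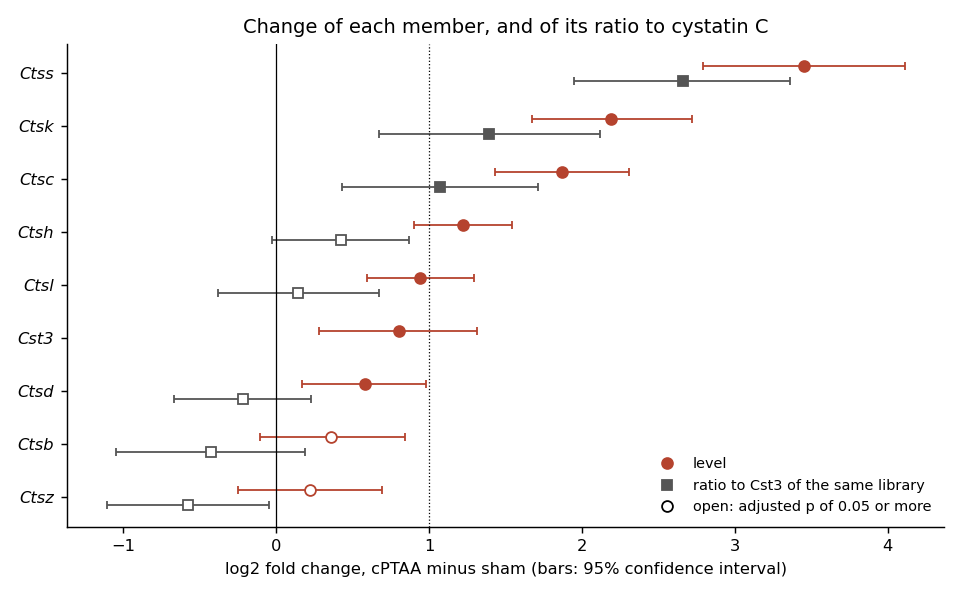
Log2 fold changes of the 9 genes, cPTAA minus sham, with 95% confidence intervals, for the level itself and, for the 8 cathepsins, relative to Cst3 of the same library. Ctss, Ctsk and Ctsc keep intervals above 0 in both, while the interval of Ctsb spans 0 in both.

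Cst3, the inhibitor, rose too. Sham values were 25407, 19129, 18886, 17568 and 20852 in sham 1, 5, 8, 10 and 11. The cPTAA values ranged from 24224 (cPTAA 12) through a median of 36167 to 56446 (cPTAA 6). The lowest aneurysm, cPTAA 12, was below sham 1, and the other 6 lay above every sham library. The mean was 36403 ± 10963 (SD, n = 7) against 20368 ± 3049 (SD, n = 5), a log2 fold change of 0.80 ± 0.24 (adjusted p = 0.0256). The call was lost without sham 5 (adjusted p = 0.0602), sham 10 (0.0697) or sham 11 (0.051), with log2 fold changes of 0.75 to 0.81. Without cPTAA 6, 7 and 9 and sham 8, the libraries with the highest cardiomyocyte scores, Ctsd was at 0.35 ± 0.16 (adjusted p = 0.117) and Cst3 at 0.52 ± 0.19 (adjusted p = 0.0603), and the other 5 genes kept their calls.

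Each cathepsin was then set against Cst3 in the same library, which compares the protease transcripts with that of cystatin C. For Ctsd this is not a ratio of protease to inhibitor, since cystatin C does not block the protease it encodes. Relative to Cst3, 3 of the 8 cathepsins rose (Ctss, Ctsk and Ctsc), where 4.72% of all tested genes did. By limma 0 of the 8 fell relative to Cst3, where 47.6% of all tested genes fell, since the rise of Cst3 is subtracted from every gene. At an unadjusted p under 0.05 that count was 1 (Ctsz), with edgeR and DESeq2 it was 0 and with voom 1. The median log2 fold change relative to Cst3 was 0.28 for the 8 cathepsins and -0.85 for all tested genes.

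Ctss was at 1.71% to 4.23% of the Cst3 value in sham, with a median of 1.97%, and at 6.66% to 27.8% in cPTAA. It was the 1 cathepsin whose ratio to Cst3 did not overlap between the groups, and its change relative to Cst3 was 2.66 ± 0.34 (adjusted p = 3.31e-05). Ctsk went from a median of 1.74% of Cst3 in sham to 6.07% in cPTAA, with the lowest aneurysm at 2.65% and the highest sham aorta at 3.33%. Its change relative to Cst3 was 1.39 ± 0.34 (adjusted p = 0.00414). Ctsc went from a median of 4.90% to 10.5%, a change of 1.07 ± 0.30 (adjusted p = 0.00943). For Ctsk, cPTAA 9 lay within the sham range, and for Ctsc cPTAA 6 and 7 did.

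The other 5 cathepsins did not pass relative to Cst3. Ctsh was at 0.42 ± 0.21 (adjusted p = 0.101) and Ctsl at 0.14 ± 0.25 (adjusted p = 0.634), so for these 2 genes a rise relative to Cst3 was not shown although each rose on its own. Ctsd was at -0.22 ± 0.21 (adjusted p = 0.387), Ctsb at -0.43 ± 0.29 (adjusted p = 0.216) and Ctsz at -0.58 ± 0.25 (interval -1.11 to -0.05, adjusted p = 0.0628). In sham, Ctsb was at 105% to 161% of the Cst3 value, and in cPTAA it was at 58.0% to 169%. Ctsz relative to Cst3 passed as lower without cPTAA 2 (-0.70, adjusted p = 0.022) or without sham 8 (-0.75, adjusted p = 0.0259). Without cPTAA 6, 7 and 9 and sham 8 together, Ctsl relative to Cst3 (0.53, adjusted p = 0.0458) and Ctsh relative to Cst3 (0.76, adjusted p = 0.00726) also rose.

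**Figure D3:**
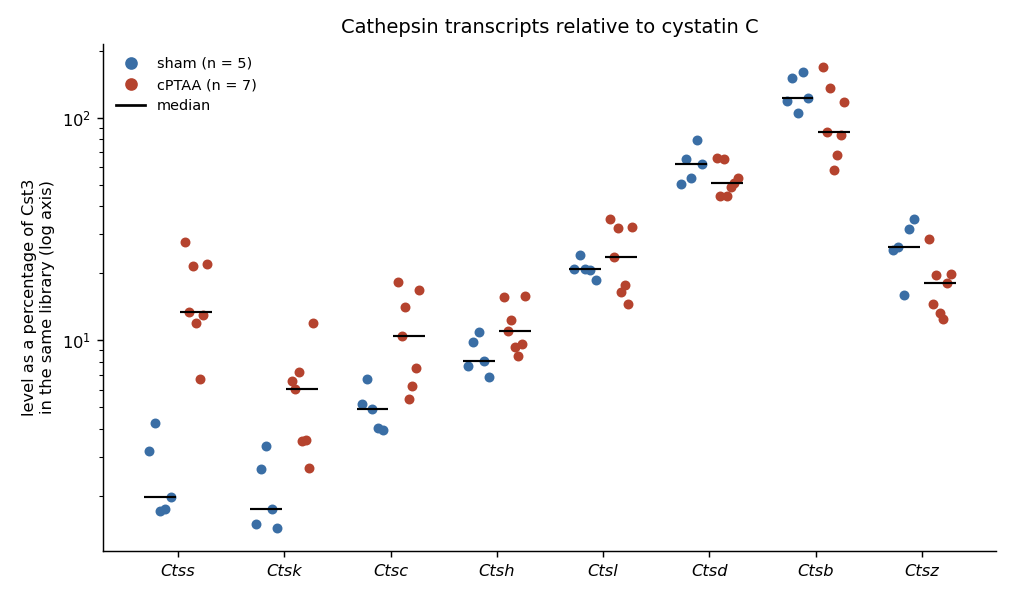
Each cathepsin as a percent of the Cst3 value of the same library, on a log axis, for the 7 cPTAA and 5 sham libraries, with the median marked. Ctss is the 1 gene whose cPTAA points (6.66% to 27.8%) lie above all sham points (1.71% to 4.23%).

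Together the 9 genes took 0.660% to 0.930% of the reads assigned to listed genes in cPTAA and 0.395% to 0.483% in sham, without overlap. Cst3, Ctsb and Ctsd held most of the summed level of the 9 in both groups, 80.7% to 83.4% in sham and 69.5% to 79.7% in cPTAA. The Ctss share of that sum was 0.428% to 1.08% in sham and 2.45% to 5.95% in cPTAA.

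Levels of different genes were compared per kilobase of the annotated principal transcript (GENCODE M21). In sham the order was Cst3 (23684 ± 3546 per kb, SD, n = 5), Ctsd, Ctsb, Ctsz, Ctsl, Ctsh, Ctsc, Ctss and Ctsk (280 ± 93.9 per kb). Neighbours separated in every sham library, with no overlap of their ranges, were Cst3 above Ctsd, Ctsl above Ctsh, and Ctsh above Ctsc. In cPTAA, Ctss was at 4125 ± 1218 per kb (SD, n = 7), beside Ctsz (4334 ± 939) and Ctsl (4196 ± 763), and the ranges of these 3 overlapped. In sham Ctss had been at 392 ± 189 per kb, beside Ctsc (406 ± 111). With the length of all merged exons instead, the order below Ctsz was different in both groups. Merged lengths were longer than the transcript used for Ctsl (6489 against 1971 bases), Ctsh (4499 against 1617) and Ctsc (5808 against 2493). In sham Ctsl stayed above the other 4 and Ctsh and Ctsc moved down, and in cPTAA the means of all 3 then lay below Ctss and Ctsk. Ctsk (1284 per kb) and Ctsl (1275 per kb) were close there, and Ctsk was above Ctsl in only 2 of 7 cPTAA libraries.

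Libraries differed in ways the members shared. Among the aneurysms cPTAA 7 was lowest for 5 members (Ctss, Ctsb, Ctsc, Ctsh and Ctsz). Ctss, Ctsb and Ctsc were highest in cPTAA 2, and Ctsd, Ctsh and Cst3 in cPTAA 6. To describe likeness, the log2 profile of each gene over the 12 libraries was centred on its own mean and the root mean square (RMS) difference taken, where 0 is an identical profile. The closest pairs among the 9 were Ctsd with Cst3 (0.248), Ctsl with Ctsh (0.254) and Ctsb with Ctsz (0.267). The measure includes the change between the groups, so genes with unlike fold changes lie apart in it even if their libraries rank alike. Ctss, which had the largest fold change of the 9, was far from all other members, with Ctsc the nearest at 0.842.

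Among 11210 genes with a mean of at least 100, those closest to Ctss were Ms4a6d (RMS difference 0.179), a membrane protein of the MS4A family, and Cd84 (0.229), a SLAM family receptor of leukocytes. Naip2 (0.250), a sensor of the inflammasome, and Clec11a (0.255), a secreted lectin, were closest to Ctsk. Ctsc was closest to Vsir (0.193), an immune checkpoint protein, and Hcls1 (0.218), a cytoskeletal adaptor of blood cells. Ctsl was closest to Asah1 (0.103), the lysosomal acid ceramidase, and Ctps (0.126), the CTP synthase. The closest to Ctsd were Pbdc1 (0.0893) and Ran (0.109), the GTPase of nuclear transport, and to Ctsh Clic1 (0.115) and Rgs19 (0.121). Cst3 was closest to Rpl10-ps3 (0.140), a ribosomal protein pseudogene, and Crip1 (0.171). The genes closest to Ctsb were Trpv2 (0.143) and Slc35f6 (0.154), and to Ctsz Ifnar2 (0.199) and Gm5854 (0.215).

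Marker scores of cell types, each the mean log2 level of a marker list, were set beside the members. Some were higher in cPTAA and some lower. The neutrophil and mast cell score (mean 5.48 in cPTAA, 5.43 in sham) and the cardiomyocyte score (7.82 and 7.58) differed little. Of 14 macrophage markers 13 rose, all but Mertk, and their summed level was 38825 to 73571 in cPTAA and 7342 to 27300 in sham. The macrophage score was highest in cPTAA 2 (11.35) and lowest in cPTAA 7 (10.33) among the aneurysms, and highest in sham 1 (9.15) and lowest in sham 10 (7.99) among the sham aortas. These are the same 4 libraries that were highest and lowest for Ctss and for Ctsc. The brown adipocyte score was lowest in cPTAA 12 (6.18) and in sham 8 (10.09), the libraries with the most Ctsk in their groups. The same 2 libraries had the highest dendritic and B cell scores of their groups, 8.36 and 5.08. Among the aneurysms the fibroblast score was also highest in cPTAA 12 (13.47), and it was lowest in cPTAA 9 (12.73), the aneurysm with the least Ctsk. Among the sham aortas the fibroblast score was highest in sham 5 (12.42), not in sham 8. Which of these scores goes with Ctsk was not tested. All 10 brown adipocyte markers fell, and their summed level was 1830 to 46026 in cPTAA and 34907 to 110223 in sham. Of the other lists, 8 of 8 T and NK cell markers, 5 of 8 fibroblast markers and 6 of 8 dendritic and B cell markers rose, and 3 of 8 smooth muscle, 3 of 6 endothelial and 4 of 6 white adipocyte markers fell. In the dendritic and B cell list Zbtb46, a transcription factor of classical dendritic cells, fell (-0.48 ± 0.13, limma adjusted p = 0.0181) and Cd209a did not pass. The 7 tested markers of neutrophils and mast cells, cells with granule proteases that cathepsin C activates, did not pass, with summed levels of 274.2 to 1419.6 in cPTAA and 454.7 to 898.2 in sham. The part of these markers in the changes of the members was not tested beyond 1 fit: when the brown adipocyte score was a covariate, Ctss (3.32, adjusted p = 0.0135) and Ctsc (1.52, adjusted p = 0.0491) passed, and the other 5 did not. Ctsk was then at 1.08 (adjusted p = 0.0744, from 2.19), Ctsh at 1.07 (0.0537, from 1.22) and Ctsl at 0.75 (0.152, from 0.94). For Ctsd the log2 fold change was larger in that fit, 1.10 (adjusted p = 0.0686, from 0.58), and so was that of Cst3, 1.35 (0.0817, from 0.80). Ctss relative to Cst3 was at 1.98 (adjusted p = 0.0153) in that fit, Ctsc relative to Cst3 at 0.17 (0.774) and Ctsk relative to Cst3 at -0.26 (0.59). The score did not overlap between the groups, so it cannot be told apart from the condition.

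**Figure D4:**
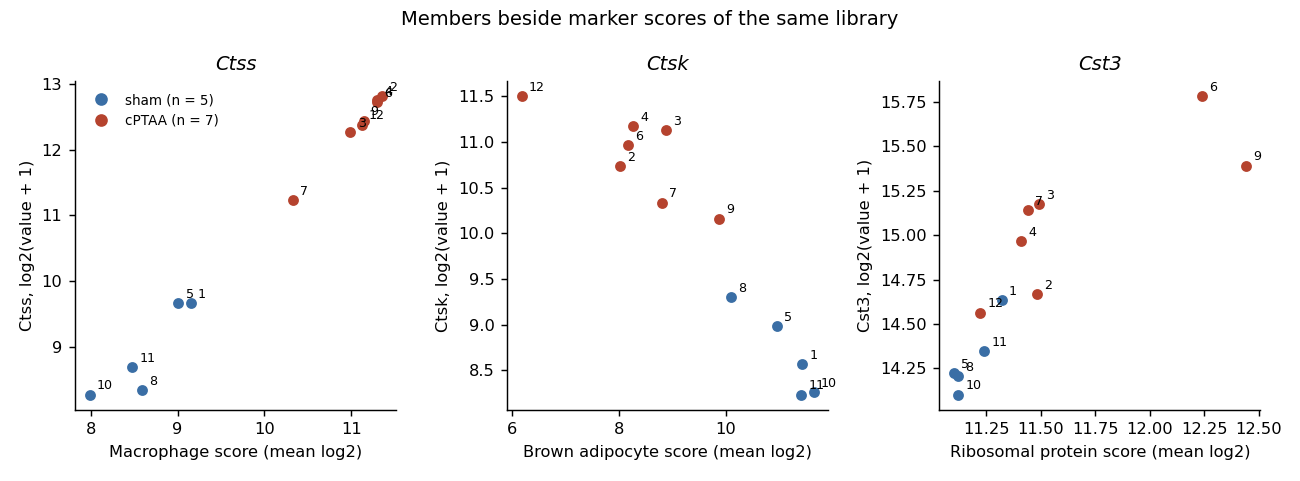
Log2 levels of Ctss, Ctsk and Cst3 in the 12 libraries against the macrophage, brown adipocyte and ribosomal protein scores of the same library, with library numbers beside the points. Ctss is highest where the macrophage score is highest (cPTAA 2, 11.35), Ctsk is highest where the brown adipocyte score is lowest (cPTAA 12, 6.18), and Cst3 is highest in cPTAA 6 and 9, the libraries with the highest ribosomal protein scores.

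Genes around the cathepsins were taken from lists by function, and their counts are read beside the 12.9% and 11.1% of all tested genes that rose and fell. Of the 5 other cathepsins tested, 4 rose: Ctsa (0.87 ± 0.13), a carboxypeptidase that protects lysosomal glycosidases, Ctso (0.55 ± 0.11), Ctsw (3.15 ± 0.46), known from T and NK cells, and Ctse (2.96 ± 0.60), an aspartic protease. Ctsw and Ctse were low, with sham means of 8.56 and 3.98. Ctsf, at -0.13 ± 0.13, did not pass (limma adjusted p = 0.51).

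Of 10 other cystatins and cathepsin inhibitors tested, 7 passed as higher and 3 (Cst9, Ctla2b and Fetub) did not pass, with a median log2 fold change of 1.32. The 7 include Kng1, which met the filter on low values through its cPTAA values (lowest 1.93). Its sham mean was 0.399 and its highest sham value 1.02, so its call is not read as a result. The smallest p-values belonged to Ctla2a (1.32 ± 0.20), a propeptide-like inhibitor of cathepsin L, and Serpina3g (3.40 ± 0.40), a serpin that can block cysteine cathepsins. Both have near-identical relatives in the mouse genome, so their reads are uncertain. Cstb, the cystatin of the cytosol, rose from 642 ± 41.1 (SD, n = 5) to 1117 ± 310 (SD, n = 7), and Cst7, cystatin F, which blocks cathepsin C in immune cells, from 3.89 ± 3.54 to 25.4 ± 7.98. Both were singled out after their values were seen.

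Of 15 genes that process or sort lysosomal proteases, 2 rose, 1 fell and 12 did not pass. Lgmn, the asparaginyl endopeptidase that matures cathepsins to their cleaved forms, rose from 1782 ± 313 to 6056 ± 1718, a log2 fold change of 1.73 ± 0.21 (limma adjusted p = 4.29e-05). Grn, the progranulin gene, rose by 0.92 ± 0.23 (adjusted p = 0.0103). Sort1, which encodes the sorting receptor sortilin, fell from 3529 ± 597 to 1469 ± 253 (-1.27 ± 0.15, adjusted p = 4.46e-05). The mannose 6-phosphate receptors, the main route of cathepsins to the lysosome, did not pass, with M6pr at 0.23 ± 0.11 and Igf2r at 0.28 ± 0.25.

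Of 19 genes for the acidification of lysosomes, 3 rose and 16 did not pass: Atp6v0d2 (4.21 ± 0.56), a pump subunit of osteoclasts and macrophages, Tcirg1 (1.08 ± 0.15), the pump subunit of the osteoclast membrane, and Ostm1 (0.51 ± 0.13), partner of the chloride exchanger. Atp6v0d2 was low, with a mean of 10.3 in sham and 193 in cPTAA, where values ran from 70.2 to 619. The median over the list was 0.15 on the log2 scale. The count moved to 6 with scaling to library totals, to 5 with voom and to 5 without cPTAA 12.

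Of 9 transcription factors known for lysosomal or protease genes, 5 rose and 1 fell. Spi1, which encodes PU.1, rose by 2.79 ± 0.24, Irf8 by 2.89 ± 0.29, Ciita, the activator of MHC class II genes, by 2.33 ± 0.36 and Tfec, a relative of TFEB, by 1.98 ± 0.35. Nfatc1, the osteoclast factor that acts on Ctsk, was near the threshold at 0.53 ± 0.18 (limma adjusted p = 0.0473), and its call was lost without any 1 of cPTAA 3, 6, 7 or 9 or of the 5 sham libraries, with adjusted p between 0.0507 (without cPTAA 7) and 0.0997 (without sham 1). Zkscan3, a repressor of lysosomal genes, fell (-0.62 ± 0.15, adjusted p = 0.00681). The 3 main factors of the lysosomal gene programme did not pass, with Tfeb at -0.18 ± 0.25, Tfe3 at 0.26 ± 0.12 and Mitf at 0.36 ± 0.20.

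Of 14 genes of matrix substrates and of antigen presentation, 12 rose and Acan and Nid1 did not pass. Beside Cd74, the antigen presentation genes were H2-Aa, H2-Ab1 and H2-Eb1, which encode MHC class II chains and are not counted as substrates here. The smallest p-values were those of Fn1, fibronectin (2.47 ± 0.34), and Cd74, the invariant chain that cathepsin S trims (2.21 ± 0.35). Cd74 was at 10388 ± 5178 (SD, n = 7) in cPTAA and 2244 ± 1037 (SD, n = 5) in sham. Of 10 granule proteases in the list for cathepsin C, 3 passed as higher, and all were low. Whether cathepsin C activates each gene product of the list was not tested. Gzmk, granzyme K, had means of 9.52 in cPTAA and 0.633 in sham. Prtn3, proteinase 3, was at 1.76 ± 0.53, with means of 52.6 and 15.3. The other was Gzmc, granzyme C. Gzmc was at 0 in all 5 sham libraries, where a count of 0 allows up to 3 reads, and at 0 to 17.5 in cPTAA, so no fold is given. Gzmc passed the filter on low values through cPTAA libraries alone, so its call is not read as a result. Gzmk, with a highest sham value of 3.16, met that filter through its cPTAA values (lowest 1.93), so its call is not read as a result either. The other 7, Gzma and Gzmb among them, did not pass. The Prtn3 call was lost without cPTAA 2 or cPTAA 6 (adjusted p = 0.0522 in each case), sham 5 (0.0631) or sham 8 (0.0601, log2 fold change 1.32). The count of 3 moved to 5 without cPTAA 7 and with DESeq2, and to 1 with voom.

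**Figure D5:**
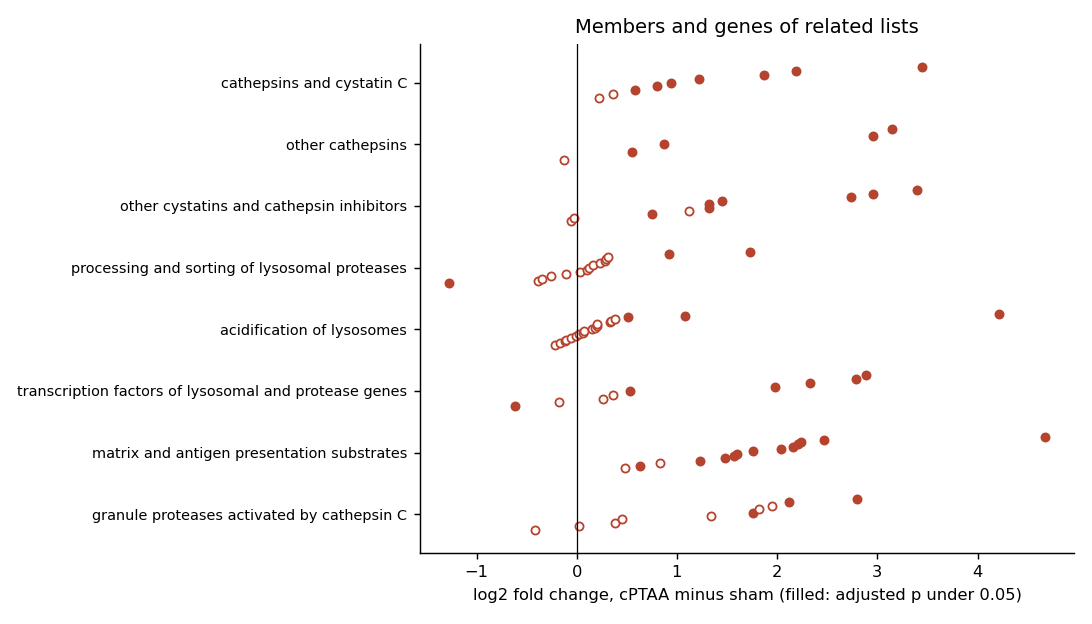
Log2 fold changes, cPTAA minus sham, of the 9 members and of the genes in the 7 lists around them, 1 point per tested gene, filled where limma's adjusted p is under 0.05. The list medians run from 0.12 for processing and sorting to 1.68 for the matrix and antigen presentation genes.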

How the data were processed

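Per the labels' protocols, mRNA was taken from total RNA with oligo-dT beads, and random hexamers primed the first cDNA strand. HISAT2 2.0.5 and featureCounts 1.5.0-p3 were used with GRCm39, per the submitters' processing notes, which also list StringTie. Strand setting, scaling and filters are each not given in the sources used here. The deposited signal per gene is never below 0. Checked on the values, each value was read counts over 1 factor per library: 100% of values gave whole reads within 0.02, and 1 read was worth 0.8631 to 1.164 units.

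Groups and library numbers came from the sample titles. The test, chosen because the deposited signal is normalised, was limma 3.58.1 in R 4.3.3 with a trended variance on log2(value + 1). Genes with a value of at least 1 in at least 5 libraries were tested, with Benjamini-Hochberg adjustment over all of them. Changes of at least 2-fold used limma's treat. The fit relative to Cst3 subtracted the log2 level of Cst3 in each library. On the recovered reads, edgeR 4.0.16 (quasi-likelihood) called 2622 genes higher and 2261 lower of 15839. Other alternatives were DESeq2 1.42.0, voom with sample weights, other scalings, no filter, a pseudocount of 0.1, a covariate and leaving out libraries. The calculations were tested on simulated data.

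Besides the 9 members, each list gave the genes past the threshold where 5 or fewer moved in a direction, otherwise the 2 with the smallest p, and each member the 2 genes closest in profile. The members and lists were chosen with earlier results of these data known. Transcript lengths came from GENCODE M21 and promoters from RefSeq, both of GRCm38.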

Additional observations from a re-analysis of the deposited data

How the results depend on the processing

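The count of members that rose was 7, and 0 fell, with DESeq2, edgeR, voom, TMM scaling, scaling to library totals and a pseudocount of 0.1, and 6 rose without the filter on low values, where Ctsd missed the threshold. Leaving out 1 library at a time gave 5 to 7 members higher and 0 lower, 2 to 3 changed by at least 2-fold, 3 higher relative to Cst3, 0 to 1 lower relative to Cst3, and 2213 to 3156 genes higher and 1675 to 2818 lower over all tested genes. With the brown adipocyte score as covariate, 2 members rose, 0 changed by at least 2-fold and 1 rose relative to Cst3, and over all genes 347 rose and 127 fell. That fit turned the changes relative to Cst3 of Ctsk (-0.26), Ctsl (-0.60) and Ctsh (-0.28), and that of Nfatc1 (-0.03). In that fit the counts of genes that rose were 0 (from 4) for other cathepsins and 1 (from 7) for other inhibitors. They were 0 (from 2) for processing and sorting, 1 (from 3) for acidification and 2 (from 5) for transcription factors. For matrix and antigen presentation genes the count was 0 (from 12), and for granule proteases 0 (from 3). Ctsc relative to Cst3 was at 0.17 in that fit. The cause was not tested. Without cPTAA 6, 7 and 9 and sham 8 together, 5 cathepsins rose relative to Cst3, Ctsz was at -0.03 and Gm5854 at -0.05, and leaving out 1 library at a time put Gm5854 between -0.01 (without sham 8) and 0.35. With voom 1 cathepsin, Ctsz, fell relative to Cst3. Again the cause was not tested.

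Of all calls, 53.7% were rises, against 64.7% with scaling to library totals and 73.2% with the covariate. The median of all tested genes was -0.05 on the log2 scale, 0.06 with scaling to library totals and -0.11 with the covariate. Of 189 values of the members under these alternatives, 168 kept direction and side of the threshold, 20 lost the call and 1 turned sign. No paired analysis was possible because no library number occurs in both groups. The lowest value of any member in any library was 299.1, for Ctsk in sham 11, and the number of libraries limits the precision of each change.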

Other observations

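Ribosomal protein genes, a list chosen after values were seen, were followed because the gene closest in profile to Cst3 was the pseudogene Rpl10-ps3. Of 87 ribosomal protein genes tested with limma, 21 (24.1%) rose, where 12.9% of all tested genes rose, and 0 fell, where 11.1% of all tested genes fell. At an unadjusted p under 0.05, 55 were higher and 0 lower. The rises and falls were 30 and 0 with edgeR, 41 and 0 with DESeq2 and 39 and 2 with voom. Their mean log2 score was 12.24 in cPTAA 6 and 12.44 in cPTAA 9, 11.22 to 11.49 in the other 5 cPTAA libraries and 11.10 to 11.32 in sham. Cst3 and Ctsd both had their highest value in cPTAA 6 and the next in cPTAA 9. The part of these genes in the changes of Cst3 and Ctsd was not tested.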
